A study of Mus musculus with 23 samples.

Results

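Transcripts of 7 core factors of nonsense-mediated decay, namely Upf1, Upf2, Upf3a, Upf3b, Smg1, Smg5 and Smg6, were read in mouse left ventricle after inhalation of e-cigarette aerosol. The genes were chosen by name as a family, on the basis of Upf2, known beforehand as the gene of smallest p between 3-week vehicle and 3-week air, so the values and calls of the 7 in that comparison are a description and support nothing. All 7 were found among 49315 counted genes, and all 7 were among the 15500 that passed the filter on low counts. Their counts ran from 178 (Upf3b) to 1712 (Smg5) per library.

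The samples were 23 libraries of left ventricle, the main pumping chamber, from FVB mice, an inbred strain. Mice that started at 3 months of age gave 4 libraries each of nicotine (e-cigarette vehicle carrying nicotine), vehicle (the e-cigarette vehicle alone) and air (filtered air). Mice that started at 3 weeks gave 4 nicotine, 3 vehicle and 4 air libraries, and every group was exposed for 4 hours on 5 days of the week over 3 months. Groups are named by their starting age, which cannot be told apart from the age at the end, and libraries keep the numbers of the labels. The labels name no batch, sex or nicotine dose. They do not say that libraries came from separate animals, so the spread behind each p-value may be technical.

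Nonsense-mediated decay is a surveillance pathway that degrades messenger RNAs on which translation stops too early. The RNA helicase Upf1 meets the stalled ribosome through release factors, and Upf2 bridges it to Upf3a or Upf3b, which bind the exon junction complex left downstream by splicing. The kinase Smg1 phosphorylates Upf1, after which Smg5 and Smg6 dock on it and the transcript is cut or decapped. In heart muscle the pathway is known for removing transcripts of sarcomere genes with truncating mutations, and in human cells the transcripts of several of its own factors are among its targets.

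Library totals lay between 12297955 and 17821550 counts. The biological coefficient of variation, the spread between libraries of a group beyond counting noise, was 0.105 over the 12 libraries of the older start and 0.234 over the 11 of the younger, and 0.179 when all were fitted together. Ventricular cardiomyocyte markers summed to 72014 to 88575 CPM (counts scaled to library size by TMM and a fixed total) and atrial ones to 135 to 633 CPM, with 6 of 6 genes of each list found and 2 atrial ones at 0 in at least 1 library. Libraries also differed in how their expression moved with gene length. The rank correlation, across genes, of a library's deviation from the mean with exonic length ran from -0.347 to 0.317.

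Compared between genes per kilobase of exon, Upf1 had the highest transcript level, at 17.5 ± 1.27 CPM per kb (mean ± SD, n = 23 libraries). Smg5 followed at 12.5 ± 1.38 and Upf2 at 6.94 ± 1.07 CPM per kb. Upf3b stood at 5.73 ± 2.86, Smg6 at 4.12 ± 0.41, Upf3a at 3.44 ± 0.82 and Smg1 at 3.36 ± 0.57 CPM per kb. The lower of 2 neighbours in this order was below the higher in 23 of 23 libraries for Smg5 under Upf1 and for Upf2 under Smg5, and in 19 of 23 for the next 3 steps. Upf3a exceeded Smg1 in only 11 of 23 libraries, so these did not differ beyond their spread. Lengths are the union of annotated exons, and with the longest transcript as the length Upf1 exceeded Smg5 in 3 of 23 and Upf2 exceeded Upf3b in 7 of 23 libraries. Between libraries, Upf1 was the steadiest member, with a coefficient of variation of 7.28% and a highest level 1.26 times its lowest. Upf3b varied most, with 49.9% and a factor of 4.75, and Upf2 lay between at 15.4% and 1.86.

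Promoter sequence is shown for Upf2, Upf3b and Smg5, the members on which most of the results turn. Each is the part before the outermost annotated gene start of the RefSeq promoter window (250 bases before to 50 after the start, build GRCm38.p6, 7 of 7 members matched), 5′ to 3′ on the gene's strand. Capitals mark matches to the motifs searched.
Upf2, chr2:5951219-5951446, + strand: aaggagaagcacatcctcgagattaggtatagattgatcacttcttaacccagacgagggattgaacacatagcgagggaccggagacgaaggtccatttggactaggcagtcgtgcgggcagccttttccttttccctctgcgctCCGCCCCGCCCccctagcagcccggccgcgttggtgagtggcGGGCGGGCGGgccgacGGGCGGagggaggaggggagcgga
Upf3b, chrX:37110472-37110572, - strand: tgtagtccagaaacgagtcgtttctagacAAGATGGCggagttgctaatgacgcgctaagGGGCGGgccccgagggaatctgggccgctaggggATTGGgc
Smg5, chr3:88336010-88336258, + strand: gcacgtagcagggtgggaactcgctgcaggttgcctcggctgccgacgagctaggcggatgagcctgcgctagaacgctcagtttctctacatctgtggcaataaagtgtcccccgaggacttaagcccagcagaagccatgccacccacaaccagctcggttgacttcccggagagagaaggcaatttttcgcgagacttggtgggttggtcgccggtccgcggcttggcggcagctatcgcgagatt
The motifs were the GC box (GGGCGG), the CCAAT box (CCAAT), the ETS core (CCGGAA), the cyclic AMP element (TGACGT), the E-box (CACGTG), the YY1 motif (AAGATGGC) and the TATA box (TATAAA), on both strands. The Upf2 stretch holds 5 GC box matches, of which 2 pairs overlap, the Upf3b stretch holds a YY1 match, a GC box and a CCAAT box, and the Smg5 stretch holds none. In the full windows of 300 bases, the GC box was in 6 of 7 members and 35.7% of all 32851 windows, and the CCAAT box in 3 of 7 and 37.4%. An ETS core was in the Upf1 window and 14.9% of all windows, and the YY1 motif in the Upf3b window and 2.75% of all. The cyclic AMP element, E-box and TATA box matched no member window and 7.51%, 7.15% and 13.6% of all windows.

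**Figure D1:**
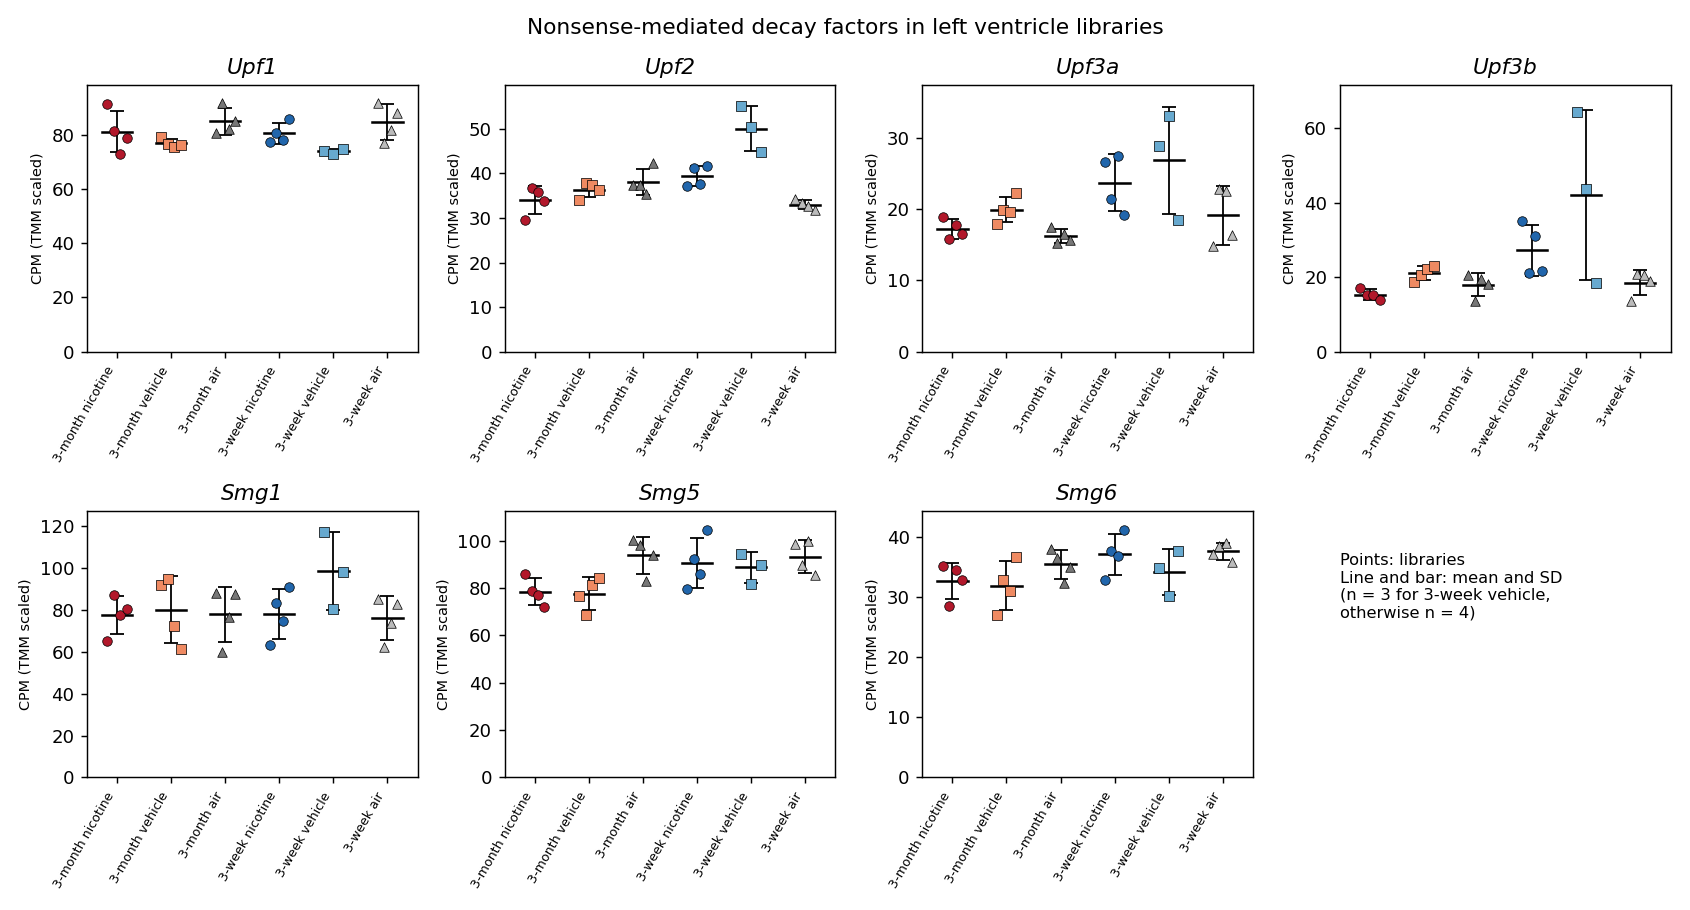
CPM of the 7 factors in each of the 23 libraries, with groups from 3-month nicotine on the left to 3-week air on the right. Horizontal lines and bars are the mean and SD (n = 4, or n = 3 for 3-week vehicle). Upf2 stands at 44.8 to 55.0 CPM in 3-week vehicle and at 31.7 to 34.3 CPM in 3-week air, and Upf3b reaches 64.2 CPM in 3-week vehicle library 1.

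At the younger start, vehicle ventricles held more Upf2 and, in part of the libraries, more Upf3b and Upf3a transcript than air ventricles, while the 4 other factors stayed within 0.38 on the log2 scale. Upf2, the scaffold of the complex, had 55.0, 50.4 and 44.8 CPM in vehicle libraries 1, 2 and 4, against 34.3, 33.3, 32.6 and 31.7 CPM in air libraries 1, 2, 4 and 5. All 3 vehicle libraries lay above all 4 air libraries, a change of 0.60 ± 0.09 (log2 ± SE), or 1.52-fold. Such full separation upward held for 5.06% of all genes. Upf3b, encoded on the X chromosome, had 64.2, 43.6 and 18.5 CPM in vehicle libraries 1, 2 and 4, against 13.7, 20.9, 20.5 and 18.9 CPM in the air libraries. Vehicle libraries 1 and 2 were high and library 4 lay inside the air range, with a fitted change of 1.18 ± 0.26 log2, or 2.27-fold. Upf3a, the paralogue of Upf3b, had 28.8, 33.1 and 18.5 CPM in vehicle libraries 1, 2 and 4, against 14.7, 22.8, 22.5 and 16.4 CPM in air. The same 2 vehicle libraries stood above the air range and library 4 within it (0.49 ± 0.17 log2). In whole tissue, a change in the share of a cell type and a change of RNA per cell cannot be told apart.

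Among the remaining members, Smg1 had 117.5, 80.6 and 98.1 CPM in 3-week vehicle against 62.2 to 85.4 CPM in air (0.38 ± 0.17 log2). Upf1 had 73.1 to 74.8 CPM in vehicle against 77.0 to 91.8 CPM in air. It was slightly lower in all 3 libraries (-0.19 ± 0.08 log2), as 4.19% of all genes were lower in all 3. Smg5 and Smg6, which act at the decay step, had changes of -0.07 ± 0.10 and -0.14 ± 0.11 log2 with overlapping libraries. By the adjusted p of edgeR's quasi-likelihood test at 0.05, 2 of 7 members were called, both higher (Upf2 and Upf3b), where 16.2% of all tested genes were called. Because the family was taken up with this comparison known, nothing is read from that count.

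The calls depended on the set of libraries fitted, and the size of the Upf3b difference on single libraries. With the 3-week libraries fitted alone, which varied more, 0 members and 0 of 14856 genes were called. Without air libraries 1 and 5, Upf2 was higher by 0.58 ± 0.11 log2 and Upf3b by 0.99 ± 0.32. Without vehicle libraries 1 and 2, Upf2 was still higher by 0.46 ± 0.12 log2, while Upf3b and Upf3a stood at 0.02 ± 0.26 and -0.03 ± 0.22 log2. In the fit of all libraries, 0 members and 0 genes in all were called when air library 1 or vehicle library 1 was left out. Only Upf2 of the members was called without air library 5 or vehicle library 2, with 170 and 107 genes in all. Other measures moved with the same libraries. Vehicle libraries 1 and 2 had length correlations of -0.211 and -0.278 against 0.18 in library 4, and noncoding genes took 2.55% and 2.16% of their counts against 1.41% in library 4 and 1.11 to 1.49% in air. The adipocyte marker list (6 of 6 found, 3 at 0 in at least 1 library) summed to 1009, 1358 and 633 CPM in vehicle libraries 1, 2 and 4, against 410 to 763 CPM in air. Blood markers (6 of 6 found, none at 0) summed to 2363 CPM in vehicle library 1 and to 467 and 499 CPM in libraries 2 and 4, against 505 to 931 CPM in air. Atrial markers summed to 633 CPM in vehicle library 2 and to 189 and 221 CPM in libraries 1 and 4, against 183 to 464 CPM in air. The part of the length trend, noncoding content, fat, blood and atrial tissue in the result was not tested. An offset for gene length was also fitted, which removes only each library's mean trend with length. With it the differences were 0.64 ± 0.09 log2 for Upf2 and 1.19 ± 0.26 for Upf3b, and Smg1 was then called too (0.43 ± 0.14 log2).

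**Figure D2:**
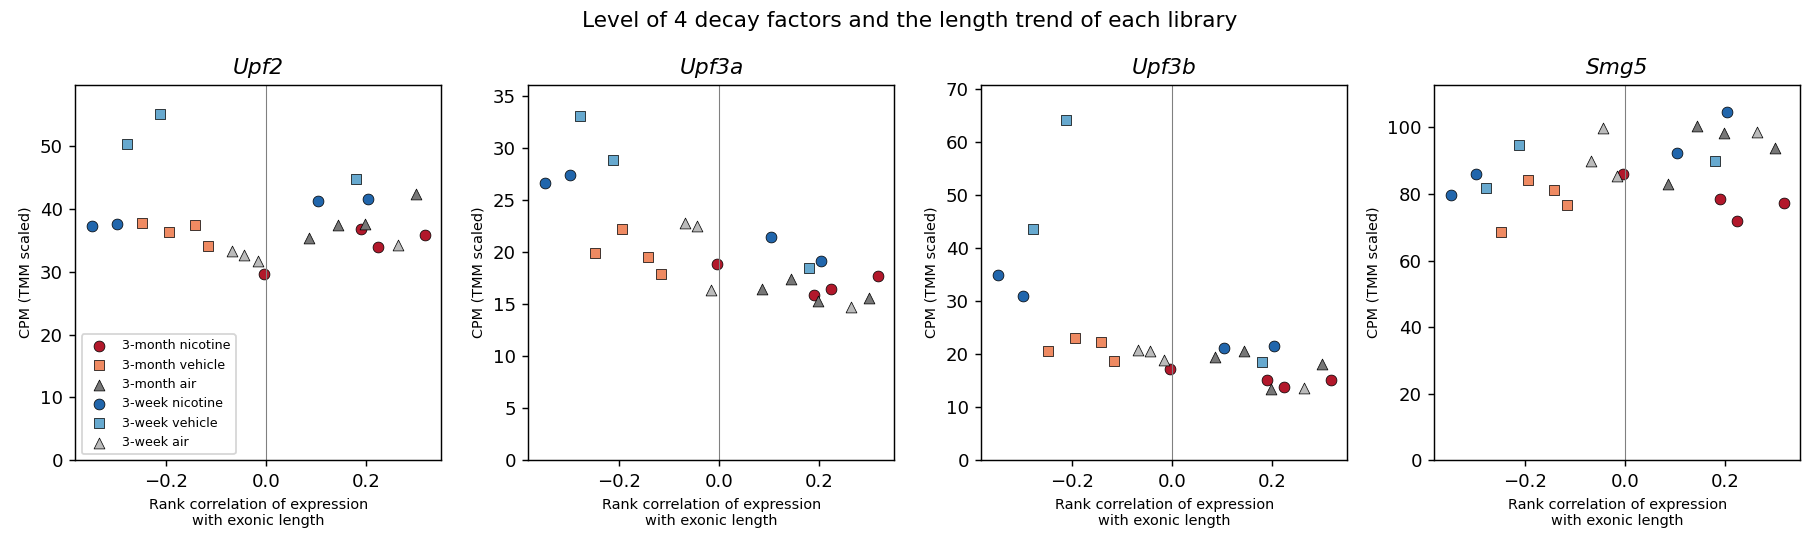
CPM of Upf2, Upf3a, Upf3b and Smg5 (vertical axes) in each library against that library's rank correlation of expression with exonic length (horizontal axes), with symbols by group. The 4 highest Upf3b libraries, 2 of 3-week nicotine and 2 of 3-week vehicle, lie between -0.347 and -0.211 on the horizontal axis.

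Nicotine ventricles of the younger start lay between vehicle and air for the Upf2 and Upf3 factors by group mean, and library by library only for Upf2. Their comparisons share libraries with the one above, so values are given side by side. Upf2 had 37.2, 41.2, 37.6 and 41.6 CPM in nicotine libraries 2, 3, 5 and 6, above all air libraries and below all vehicle libraries. Of all genes, 2.57% lay wholly above air and 2.36% wholly below vehicle. The Upf2 change was 0.26 ± 0.09 log2 against air and -0.35 ± 0.09 log2 against vehicle. Upf3b had 35.0, 21.2, 31.0 and 21.6 CPM in nicotine libraries 2, 3, 5 and 6, all above the highest air library at 20.9 CPM. Its change was 0.56 ± 0.25 log2 against air and -0.63 ± 0.26 against vehicle. Upf3a had 26.6, 21.5, 27.4 and 19.2 CPM in the same order (0.31 ± 0.16 log2 against air and -0.18 ± 0.17 against vehicle). Over 17 alternatives its value against vehicle ran from -0.39 to 0.33 log2. Vehicle library 4, at 18.5 CPM for Upf3a and for Upf3b, lay below every nicotine library. Nicotine libraries 2 and 5, the high ones for both Upf3 genes, had length correlations of -0.347 and -0.297, against 0.103 and 0.204 in libraries 3 and 6. Blood markers summed to 1087 to 1406 CPM in the 4 nicotine libraries, above all air libraries, and adipocyte markers to 638 to 1020 CPM. Noncoding genes took 1.89% and 1.73% of counts in nicotine libraries 2 and 5, against 3.11% and 1.35% in libraries 3 and 6. Their share was thus highest in library 3, a low one for Upf3b. The part of the length trend, noncoding content, blood and fat was not tested. Left without libraries 2 and 5, Upf3b stood at 0.20 ± 0.29 log2 against air while Upf2 stood at 0.32 ± 0.10. Against vehicle the Upf3b value turned to 0.53 ± 0.27 log2 without vehicle libraries 1 and 2.

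Against 3-week air, 0 of 7 members were called by edgeR in 3-week nicotine, where 0.813% of all genes were called. Unadjusted, 2 members and 1980 genes (12.8%) had p under 0.05, and DESeq2 also called 0 members. In the authors' deposited table of the same comparison Upf2 had a log2 fold change of 0.24 (adjusted p = 0.223) and Upf3b of 0.54 (adjusted p = 0.305). Against 3-week vehicle, edgeR called 0 of 7 members and 0% of all genes, with 2992 genes at an unadjusted p under 0.05, of which 2 were members. DESeq2 called 260 genes in that comparison, Upf2 among them. Upf1, Smg5, Smg6 and Smg1 differed from air by -0.07 to 0.04 log2 in nicotine, with SEs of 0.08 to 0.16.

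At the older start, whose libraries are none of those behind the choice of the family, no factor passed the threshold in the fit of all libraries. Smg5, which docks on phosphorylated Upf1, came nearest. It had 85.8, 78.6, 77.1 and 72.0 CPM in nicotine libraries 1 to 4, and 76.8, 68.5, 81.2 and 84.1 CPM in vehicle libraries 1 to 4, against 100.5, 98.2, 82.8 and 93.8 CPM in air libraries 1, 2, 4 and 5. The lowest air library lay within the range of both aerosol groups, and the other 3 air libraries lay above all aerosol libraries. The change was -0.26 ± 0.10 log2 (95% interval -0.46 to -0.06, edgeR adjusted p = 1) in nicotine and -0.27 ± 0.10 log2 (interval -0.47 to -0.07, adjusted p = 0.299) in vehicle. Nicotine and vehicle differed by 0.01 ± 0.10 log2 (interval -0.19 to 0.21). These 2 comparisons with air share the same 4 air libraries. The authors' deposited table of nicotine against air at this age gave Smg5 a log2 fold change of -0.27 with an unadjusted p of 0.00215 and an adjusted p of 0.246.

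**Figure D3:**
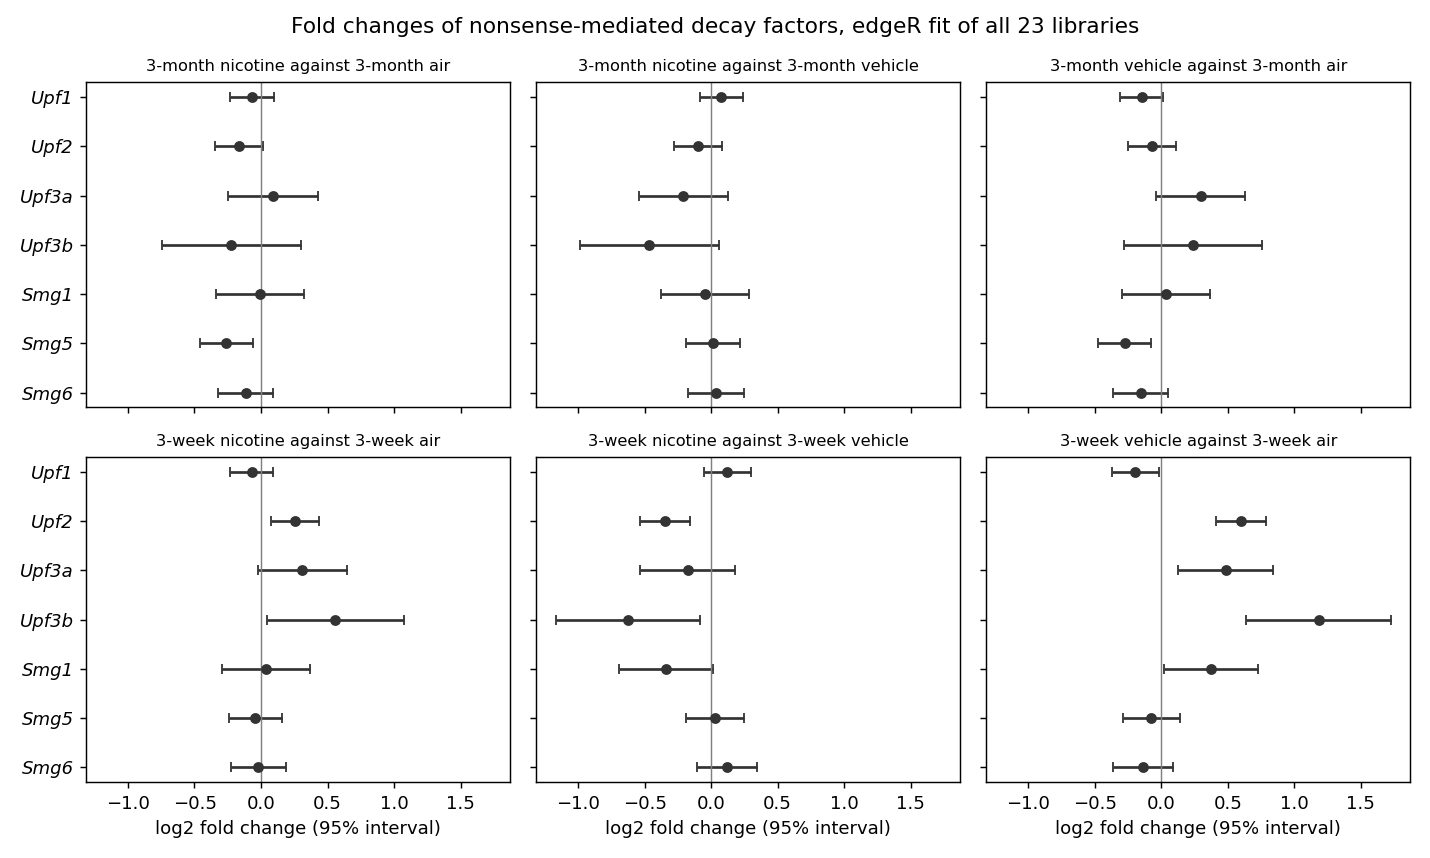
Log2 fold changes (horizontal axes, with 95% intervals) of the 7 factors in the 6 comparisons within a starting age, from 1 edgeR fit of 23 libraries. In the 3-month panels Smg5 lies at -0.26 and -0.27 against air, and in the 3-week panels Upf3b runs from -0.63 (nicotine against vehicle) to 1.18 (vehicle against air).

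For the Upf3 pair, vehicle had the highest group mean of the older start. Upf3a had 18.9, 15.8, 17.7 and 16.4 CPM in nicotine and 17.9, 19.9, 19.5 and 22.2 CPM in vehicle, against 17.4, 15.3, 16.4 and 15.6 CPM in air. All 4 vehicle libraries lay above all 4 air libraries (0.30 ± 0.16 log2, edgeR adjusted p = 0.392), while nicotine overlapped both. Such full separation upward held for 8.52% of all genes in vehicle against air. Upf3b had 17.2, 15.2, 15.1 and 13.9 CPM in nicotine and 18.7, 20.6, 22.3 and 23.1 CPM in vehicle, against 20.6, 13.5, 19.5 and 18.1 CPM in air. Every nicotine library was below every vehicle library (-0.46 ± 0.25 log2, adjusted p = 0.424), and air overlapped both. Full separation downward held for 6.66% of all genes in nicotine against vehicle. The ratio of Upf3b to Upf3a, per kilobase, was 1.31 ± 0.08 in nicotine, 1.56 ± 0.07 in vehicle and 1.62 ± 0.21 in air (SD, n = 4 each).

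Upf2 averaged 34.0 ± 3.18 CPM in 3-month nicotine, 36.4 ± 1.67 in vehicle and 38.2 ± 2.94 in air (SD, n = 4 each), with overlapping libraries. Its changes against air were -0.17 ± 0.09 log2 in nicotine (interval -0.34 to 0.01) and -0.07 ± 0.09 log2 in vehicle (interval -0.25 to 0.11). Upf1 averaged 81.2 ± 7.57 CPM in nicotine, 76.9 ± 1.61 in vehicle and 85.0 ± 4.96 in air. All 4 of its vehicle libraries were below all 4 air libraries (-0.14 ± 0.08 log2, edgeR adjusted p = 0.391), as held for 11.6% of all genes. Smg6, the endonuclease, averaged 32.7 ± 2.98, 31.9 ± 4.02 and 35.4 ± 2.40 CPM in nicotine, vehicle and air. Smg1, the kinase, averaged 77.6 ± 9.12, 80.2 ± 16.1 and 78.1 ± 13.2 CPM in the same groups, the widest spread of the 4.

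By edgeR, 0 of 7 members and 0% of 15500 genes were called in each of the 3 comparisons of the older start. Unadjusted p-values under 0.05 came to 1 member and 2200 genes in vehicle against air, 1 member and 408 genes in nicotine against air, and 0 members and 1889 genes in nicotine against vehicle. DESeq2 called 82, 1 and 13 genes in the same order, with no member among them.

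When the 12 libraries of the older start, which varied less, were fitted alone, 3 members passed. In vehicle against air, Upf3a was higher (0.31 ± 0.09 log2, edgeR adjusted p = 0.0261) and Smg5 lower (-0.26 ± 0.08 log2, adjusted p = 0.0322), 2 of 7 members where 18.7% of 14526 genes were called. In nicotine against vehicle, Upf3b was lower (-0.49 ± 0.12 log2, adjusted p = 0.0132), 1 of 7 members where 16.6% of genes were called. In nicotine against air 0 of 7 members were called and 0.0482% of genes. A share of 2 or 1 in 7 is near these backgrounds and is no result about the family. Over the 16 alternatives to the fit of all libraries, the adjusted p ranged from 0.0162 to 0.618 for Upf3a, from 0.0322 to 0.586 for Smg5 and from 0.00621 to 0.698 for Upf3b in these comparisons.

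These 3 calls depended on single libraries to different degrees. In the fit of the older start alone, leaving out each of its 12 libraries in turn kept the Upf3b call in 11 cases (log2 -0.54 to -0.43, edgeR adjusted p = 0.00393 to 0.0503) and lost it without nicotine library 4. The Smg5 call held in 8 of 12 cases and was lost without air library 1, 2 or 5 or vehicle library 2. For Upf3a it held in 7 of 12 cases and was lost without air library 2 or 5 or vehicle library 2, 3 or 4. Vehicle libraries here had length correlations of -0.247 to -0.115, against -0.00388 to 0.317 in nicotine and 0.0852 to 0.299 in air. With the length offset in this fit, Upf3a (0.35 ± 0.09 log2) and Upf3b (-0.49 ± 0.12) were as large and still called, and Smg5 stood at -0.19 ± 0.08 (adjusted p = 0.118). Adipocyte markers summed to 668 to 914 CPM in vehicle against 441 to 638 CPM in air and 514 to 554 CPM in nicotine. Blood markers summed to 660 to 893 CPM in vehicle against 304 to 722 CPM in air and 408 to 553 CPM in nicotine. The part of the length trend, fat and blood was not tested.

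Setting the 2 starting ages side by side, nicotine ventricles of the older start had less Upf3b than those of the younger. Upf3b averaged 15.3 ± 1.38 CPM in 3-month nicotine and 27.2 ± 6.90 CPM in 3-week nicotine (SD, n = 4 each). It was lower in all 4 libraries, as were 9.37% of all genes. The change of -0.83 ± 0.25 log2 passed the threshold (edgeR adjusted p = 0.041), 1 of 7 members where 9.52% of all genes were called. The call was lost without 3-week nicotine library 2 or 5 or without any 1 of the 3-month nicotine libraries, and without 3-week libraries 2 and 5 together the change was -0.48 ± 0.29 log2. Over the 14 alternatives run its adjusted p ranged from 0.0137 to 0.485. Blood markers summed to 408 to 553 CPM in 3-month nicotine against 1087 to 1406 CPM in 3-week nicotine, and their part was not tested. Upf3a averaged 17.2 ± 1.37 and 23.7 ± 3.98 CPM (-0.46 ± 0.16 log2, adjusted p = 0.0745) and Upf2 34.0 ± 3.18 and 39.4 ± 2.33 CPM (-0.21 ± 0.09 log2, adjusted p = 0.116) in 3-month and 3-week nicotine. Upf1 and Smg1 differed by 0.01 ± 0.08 and -0.01 ± 0.16 log2.

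The other age comparisons reuse the 3-week air or vehicle libraries and are given as description. Between 3-month and 3-week air 0 of 7 members were called, with 0.00645% of genes, and Upf2 stood at 38.2 ± 2.94 against 33.0 ± 1.08 CPM (0.21 ± 0.09 log2). That made 3-week air the lowest of the 6 groups for Upf2. One member, Upf2, and 1408 genes (9.08%) had an unadjusted p under 0.05 there, and DESeq2 called 36 genes and no member. Between 3-month and 3-week vehicle 2 of 7 members were called, both lower, where 12.5% of genes were. These were Upf2 at 36.4 ± 1.67 against 50.1 ± 5.13 CPM (-0.46 ± 0.09 log2) and Upf3b at 21.2 ± 1.92 against 42.1 ± 22.9 CPM (-0.99 ± 0.26 log2). Without 3-week vehicle libraries 1 and 2 the Upf3b value turned to 0.18 ± 0.27 log2 and that of Upf2 was -0.32 ± 0.12.

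The difference between ages was also fitted directly, as the effect at 3 weeks minus the effect at 3 months. Both differences contain the 3-week air libraries, and that of vehicle contains the comparison on which the family was chosen, so they are a description. For vehicle against air the difference was 0.67 ± 0.13 log2 for Upf2 and 0.94 ± 0.36 for Upf3b. Without 3-week vehicle libraries 1 and 2 it was 0.53 ± 0.14 for Upf2 and turned to -0.22 ± 0.32 for Upf3b. By edgeR 0 of 7 members and 0% of genes were called. Unadjusted, 2 members and 1861 of 15500 genes had p under 0.05, and DESeq2 called 85 genes with Upf2 among them. For nicotine against air the difference was 0.42 ± 0.12 log2 for Upf2 and 0.78 ± 0.35 for Upf3b, with 0 of 7 members called and 0.135% of genes. There 2 members and 1579 genes (10.2%) had an unadjusted p under 0.05, and DESeq2 called 209 genes and no member.

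Among themselves, the members fell into loose groups across libraries. Upf3a and Upf3b were the closest pair, with a Pearson correlation of log2 CPM of 0.89 over 23 libraries and 0.81 after group means were removed. Smg5 and Smg6 followed, at 0.72 and 0.58. Upf2 and Upf3b correlated at 0.67 over all libraries but at 0.18 within groups, and Upf1 ran against Upf3a at -0.60 and -0.48. These values describe libraries that share depth and the length trend and carry no test. Of 11450 named genes compared, those with the pattern most like Upf2 were Akap17b (0.88), Mbtd1 (0.84), Psip1 (0.83), Cwf19l2 (0.83) and Phf20 (0.83), and 3 of these 5 were also in the top 5 after the length offset.

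Around the core factors, 5 lists of genes of the pathway were counted. In 3-week vehicle against 3-week air 16.2% of all genes were called, and the counts of the first 3 lists are near that share. Among 8 other decay factors 1 was called there, Smg8, a regulator of the Smg1 kinase, at 8.32 ± 1.26 against 11.5 ± 0.79 CPM (-0.46 ± 0.14 log2, edgeR adjusted p = 0.0328). Of the exon junction complex list, whose 8 genes include Upf3a and Upf3b, 2 were called, Upf3b higher and the splicing activator Rnps1 lower (-0.57 ± 0.17 log2). Of 7 release and cap-binding factors 2 were lower, the release factor Etf1 (-0.65 ± 0.22 log2) and the translation initiation scaffold Eif4g1 (-0.52 ± 0.17). Of 12 decapping and decay genes 0 were called by edgeR. Unadjusted p-values under 0.05 came to 4, 4, 4 and 0 genes in these 4 lists in order, where 37.3% of all genes had one. DESeq2 called 2, 2, 3 and 0 genes in the same order, and 20.6% of the genes it tested. Medians were 0.02, 0.14, 0.05 and -0.04 log2 for these lists in that order, against 0.02 over all genes. In 3-week nicotine against air, and in the 3 comparisons of the older start, 0 genes of these 4 lists were called by edgeR or DESeq2. Unadjusted p-values under 0.05 in the 4 lists, in the same order, came to 0, 1, 0 and 0 genes in 3-week nicotine, 2, 3, 1 and 4 in 3-month vehicle against air, 0, 1, 0 and 0 in 3-month nicotine against air and 3, 3, 2 and 1 in 3-month nicotine against vehicle. Over all genes these shares were 12.8%, 14.2%, 2.63% and 12.2%.

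**Figure D4:**
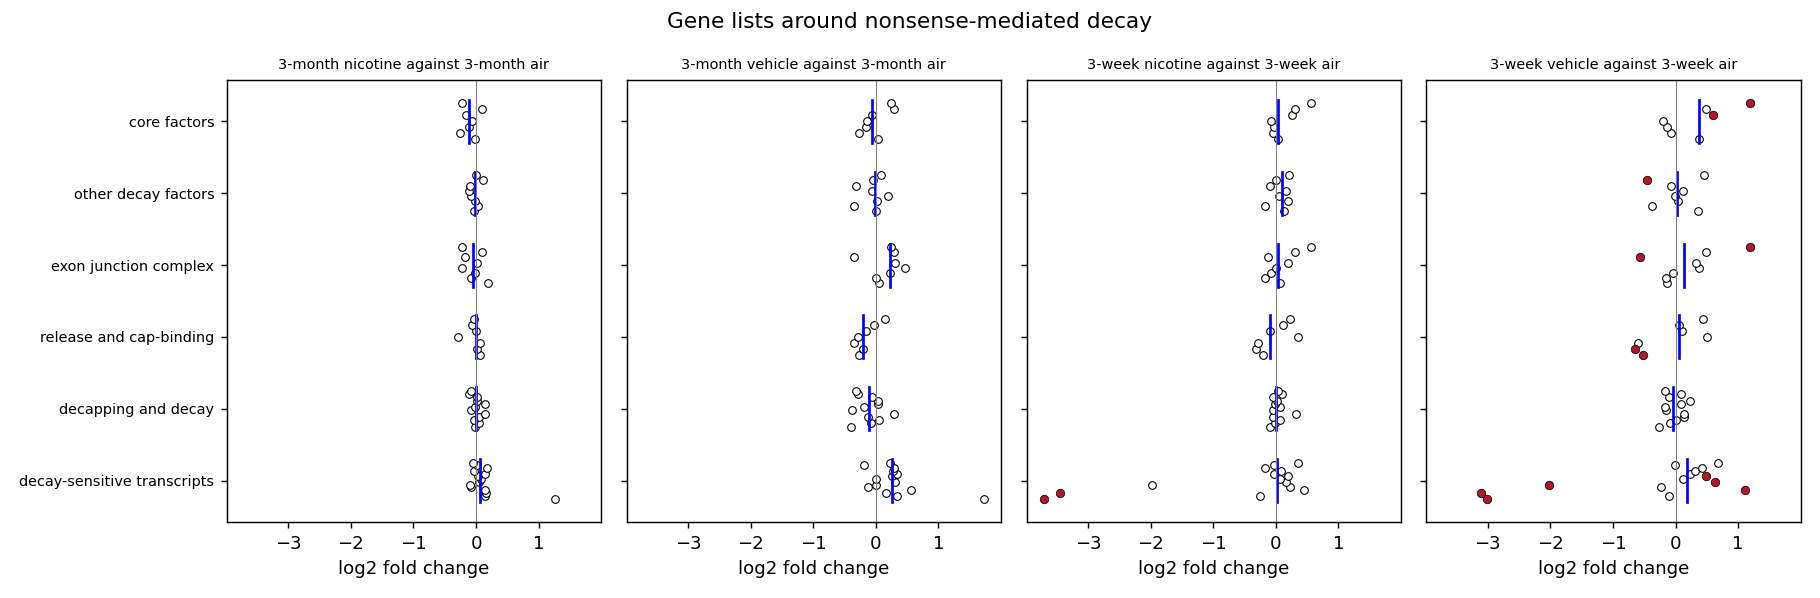
Log2 fold changes (horizontal axes) of the genes in 6 lists in the 4 comparisons of aerosol with air. Filled points were called by edgeR at an adjusted p of 0.05, open points were not, and blue bars are list medians. In the decay-sensitive list, Cdkn1a and Atf3 lie at or below -3.01 in both 3-week panels, and no point is filled in the 3-month panels.

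Transcripts described elsewhere as sensitive to the pathway, 14 genes, moved in both directions in 3-week vehicle, with 3 higher and 3 lower calls, where 16.2% of all genes were called, and a median of 0.18 log2. Higher were Ddit3, a stress transcription factor (1.11 ± 0.32 log2), the snoRNA host Gas5 (0.63 ± 0.20) and Nat9 (0.48 ± 0.16). Gas5 had 86.9, 79.5 and 41.4 CPM in vehicle libraries 1, 2 and 4, against 35.2 to 48.7 CPM in air, high in the same 2 libraries as Upf3b. In 3-week nicotine Gas5 had 63.7, 39.9, 61.0 and 36.6 CPM in libraries 2, 3, 5 and 6, again high where Upf3b was high. Lower were the stress genes Cdkn1a (-3.10 ± 0.77 log2), Atf3 (-3.01 ± 0.76) and Gadd45b (-2.01 ± 0.56).

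The 3 lower calls were lost without air libraries 1 and 5, where 0 genes in all were called in 3-week vehicle against air. They were also lost without vehicle library 1, again with 0 genes called. Cdkn1a averaged 9.20 ± 2.79 CPM in vehicle (SD, n = 3), against 103.2 and 193.1 CPM in air libraries 1 and 5 and 10.4 and 9.09 CPM in air libraries 2 and 4. In 3-week nicotine against air 2 of 14 were called, both lower, where 0.813% of genes were, Atf3 (-3.71 ± 0.71 log2) and Cdkn1a (-3.44 ± 0.71). Atf3 ran from 3.87 to 7.74 CPM in nicotine, against 3.68 to 141 CPM in air, so its libraries overlapped. Cdkn1a ran from 6.71 to 7.97 CPM in nicotine, against 9.09 to 193 CPM in air. Without air libraries 1 and 5 the genes called in all fell from 126 to 7, and without air library 1 to 1. In the 3 older comparisons edgeR and DESeq2 called 0 of 14, with 2 unadjusted p-values under 0.05 in vehicle against air and 0 in the others. In 3-month vehicle against air 12 of 14 were higher and 2 lower, with a median of 0.26 log2 against 0.01 over all genes. There 6 of 14 had all vehicle libraries above all air libraries, where 8.52% of all genes had, and this was not tested. Noncoding genes took 1.49 to 1.66% of counts in these vehicle libraries, against 1.23 to 1.46% in air. Length correlations were -0.247 to -0.115 in vehicle, against 0.0852 to 0.299 in air. The part of noncoding content and the length trend in that count was not tested either. Atf3 had 171 ± 33.0 CPM in 3-month nicotine and 237 ± 61.1 CPM in vehicle, against 71.7 ± 16.1 CPM in air. Nicotine of the older start held more Atf3 (5.09 ± 0.74 log2), Cdkn1a (3.62 ± 0.71) and Gadd45b (1.97 ± 0.51) than nicotine of the younger, 3 of 14 called where 9.52% of genes were. In 3-month against 3-week vehicle 3 of 14 were called where 12.5% of genes were, the same 3 genes, higher by 4.86 ± 0.82, 3.28 ± 0.78 and 2.12 ± 0.56 log2. The difference between ages in the nicotine effect was called for 1 of 14, Atf3 (-4.96 ± 0.94 log2), where 0.135% of genes were. That difference contains the same 3-week air libraries, and without libraries 1 and 5 of that group 1 gene in all was called. Strand was not given for the counting. Upf1 shares 68 and 63 exonic bases with Cers1 and Gdf1 on the opposite strand, and Smg6 126 and 117 with Srr and Gm12333. Each single overlap is at most 1.49% of the member's exonic length.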

How the data were processed

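RNA was sequenced from left ventricle. The authors deposited whole-number counts per Ensembl gene ID, not normalized, for 23 libraries, with 0 columns of no sample. The tools listed, per the submitters' processing notes, are STAR 2.5.2b, Trimmomatic 0.36, DESeq2, and featureCounts from Subread 1.5.2. Strand setting, annotation and build: not given in the sources used here. Genes that overlap others are therefore uncertain. For nicotine against air, tables the authors deposited hold log2 fold changes and p-values per gene, which were only quoted. A deposited table of gene ontology terms was not used because it names no comparison.

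GENCODE vM21 supplied symbols and lengths of exons, matched on gene ID for 49056 of 49315 genes, and RefSeq the promoters (GRCm38.p6). In R 4.3.3 with edgeR 4.0.16, filterByExpr at a minimum count of 10 kept 15500 genes, sizes were scaled by TMM, and a robust quasi-likelihood fit of 6 group means left 17 residual degrees of freedom. Benjamini-Hochberg adjustment ran over every gene tested, with a threshold of 0.05. SEs are from this fit. The procedure was tested on simulated data with the same spread in every group. Such data do not cover the unequal spread of the younger and older start.

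All 7 members were named in every group. From the other lists, called genes of smallest p were named, up to 3 per list and comparison. Where none was called, the gene of smallest p could be named. Ddit3, Gas5 and Nat9 fall outside this rule and were named after their values were seen, as were the libraries' values of Gas5 and Cdkn1a. Genes most like Upf2 were the 5 of highest correlation, leaving out predicted gene models and genes whose log2 CPM averaged under 1. The values of 1 gene of the other lists are not reported here. Members and lists were chosen with earlier results of these data known. Alternatives were RLE scaling, no filter, DESeq2 1.42.0, smaller sets of libraries, a replicate block, a length offset and leaving libraries out. No 2 libraries of a group agreed within counting noise.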

Additional observations from a re-analysis of the deposited data

How the results depend on the processing

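The number of members called depended on the libraries in the fit. In 3-week vehicle against air the 2 calls became 0 with libraries of the same age only, with the compared groups only, without air libraries 1 and 5, without vehicle libraries 1 and 2, and with the same-age length offset, were 3 with DESeq2 (Upf1, Upf2 and Upf3b) and with the length offset (Smg1, Upf2 and Upf3b), and ran from 0 to 4 when single libraries were left out. In 3-week nicotine against vehicle 0 became 1 with DESeq2 (Upf2) or without nicotine libraries 2 and 5 (Upf3b), and ran from 0 to 2. For the older start, vehicle against air gave 2 with same-age or compared libraries and 1 with the same-age length offset, and nicotine against vehicle gave 1 in each of these 3 fits, and 0 when any single library was left out of the fit of all 23. For 3-month against 3-week nicotine the 1 call became 0 without a filter or without 3-week nicotine libraries 2 and 5 and 2 with the compared groups, and ran from 0 to 2. In 3-month against 3-week vehicle the 2 calls became 1 without a filter and 0 with the compared groups or without 3-week vehicle libraries 1 and 2, and ran from 0 to 3. The difference of vehicle effects went to 1 with DESeq2 and ran from 0 to 2. Members stayed at 0 under every alternative run in nicotine against air at either age, in 3-month against 3-week air and in the difference of nicotine effects. The Upf3b change between 3-month and 3-week vehicle reversed to 0.18 log2 without 3-week vehicle libraries 1 and 2. The cause was not tested. The same-age length offset, the fit without 3-week nicotine libraries 2 and 5 and the left-out libraries within the 3-month fit were chosen after seeing the data.

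Replicate numbers were not used to pair the samples in the main fit, since the labels do not say what they share. Deviations of same-numbered libraries correlated at -0.362 to 0.264, and whether the numbers mark pairs is unknown. With the replicate number as a block, 0 members and 0 genes were called in every comparison within an age, as in the 2 differences of effects, and direct comparisons between ages could not be estimated.

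Counts over all genes moved as follows. In 3-week vehicle against air 2509 (1437 higher, 1072 lower) became 3372 with DESeq2 (1514 higher, 1858 lower), 1279 without a filter, and 0 wherever 0 members are given above, with 0 to 6969 when single libraries were left out. In 3-week nicotine against air 126 became 465 with DESeq2, 76 without a filter, 0 with same-age libraries, 1 with the compared groups, 7 without air libraries 1 and 5 and 19 without nicotine libraries 2 and 5, with 1 to 377 left out singly. In 3-week nicotine against vehicle 0 became 2688 without nicotine libraries 2 and 5 and 3 without a filter, with 0 to 4793. In the older groups, the compared groups alone gave 2635, 3 and 2247 calls, and the same-age length offset 2139, 8 and 1687, in vehicle against air, nicotine against air and nicotine against vehicle. For nicotine between ages 1476 became 915 without a filter and 289 without 3-week nicotine libraries 2 and 5, with 628 to 1780. For vehicle between ages 1933 became 1132 without a filter, 347 with the compared groups and 0 without 3-week vehicle libraries 1 and 2, with 1 to 6306. For air between ages 1 became 849 without 3-week air libraries 1 and 5, with 0 to 68. The difference of vehicle effects had 0 to 1472 and that of nicotine effects, 21, became 36 with RLE, 33 with the compared groups and 51 with the length offset, with 0 to 199. At 178 to 1712 counts per library, counting noise is part of the spread within groups.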
